A study of Penicillium oxalicum with 6 samples.

Results

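The 8 genes described here are listed as xylanase genes of the mould Penicillium oxalicum, which releases enzymes that degrade plant cell walls. They were chosen by identifier (POX00063, POX01237, POX04274, POX05916, POX06601, POX06783, POX08484 and POX08990) from the 9834 genes in each table. Their RNA was measured in 3 libraries of the strain MuPOX05503, which is mutated in POX05503, and in 3 libraries of the strain Ku70, which is mutated in Ku70. Both strains were grown alike: about 1 g of mycelium was shaken for 24 h in 100 mL of medium whose carbon source was 1% Avicel (microcrystalline cellulose), at 28 °C and 180 rpm. Ku70 takes part in the joining of broken DNA ends, and its loss is a common background for gene replacement in fungi. In all 6 libraries the stated starting spores were those of the Ku70 mutant, but no label tells if MuPOX05503 carries this mutation as well. Nor is it stated that replicate libraries are separate cultures, so the spread behind each p-value may be technical only. The series asks how protein kinases act on the expression of cellulase and xylanase genes.

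Xylan is the main hemicellulose of many plant cell walls, a chain of xylose units with side groups. Endo-xylanases cut that chain inside, and other enzymes remove the side groups and split the short products. Filamentous fungi commonly switch on xylanase genes together with cellulase genes when they grow on cellulose, under shared transcriptional activators. The files give each gene an identifier, a count and a level but no product, and the RefSeq gene table of the species holds 0 of the 9834 identifiers. The name xylanase could therefore not be checked for any of the 8 genes, no catalytic family is assigned to a single gene, and the list may hold other hemicellulases.

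Libraries held 13653015.5 to 14263916.2 expected counts, which are estimated reads per gene, and 9403 to 9451 genes had a count above 0. POX05503, the mutated gene, had 470 to 539 counts per library in Ku70 and a count of 0 in each library of MuPOX05503. All 8 xylanase genes passed the filter for testing, which asked for 1 FPKM or more in any 3 of the 6 libraries. FPKM is the authors' level per gene length and sequencing depth, and no xylanase gene was below 2.99 FPKM in any library. Of the 8801 genes tested, 64.4% passed edgeR's quasi-likelihood test at a Benjamini-Hochberg adjusted p under 0.05, 32.6% as lower and 31.9% as higher in MuPOX05503.

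Transcripts of 7 of the 8 xylanase genes were lower in MuPOX05503, by 4.48-fold to 34.9-fold, and POX01237 did not pass the test. All 7 fell 4-fold or more, which 5.48% of the tested genes did. The 8 genes were chosen with earlier results of these data known, so their counts and median are a description only. The median log2 fold change of the 8 genes was -3.07, beside 0.01 over all tested genes. The FPKM of the strains did not overlap in those 7 genes, each lower in MuPOX05503, as in 29.7% of the tested genes. In these bulk libraries, fewer hyphae that express a gene and less of its RNA per hypha cannot be told apart.

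**Figure D1:**
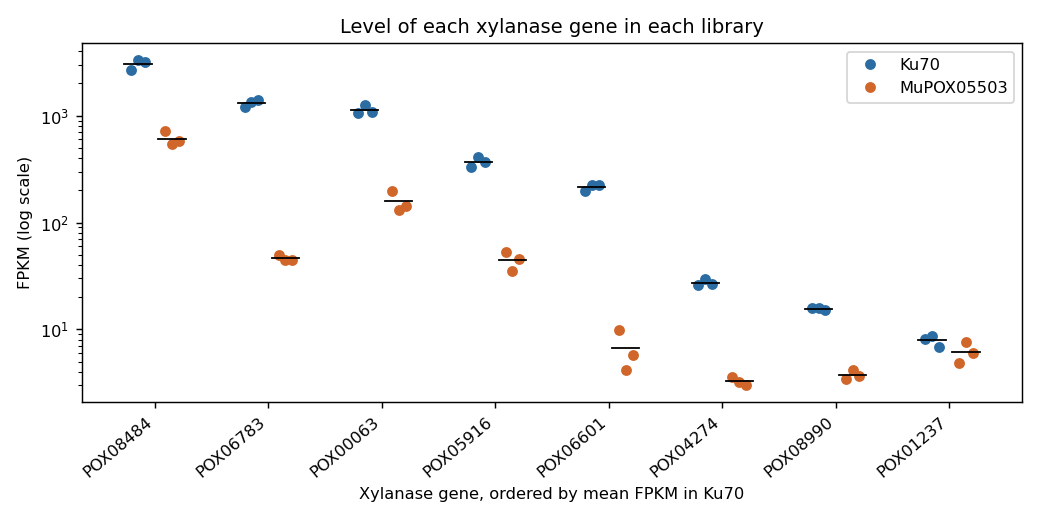
FPKM of the 8 xylanase genes (log axis) in each of 3 Ku70 and 3 MuPOX05503 libraries; points are libraries in replicate order and short lines are means. The strains are apart for every gene except POX01237, whose levels overlap.

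POX08484 had the highest level of the 8 genes in every library. Its FPKM was 2687, 3338 and 3182 in Ku70 replicates 1, 2 and 3, and 711.7, 540.3 and 575.9 in MuPOX05503 replicates 1, 2 and 3. The lowest Ku70 library thus stood well above the highest mutant library. The fall was 5.44-fold (95% confidence interval 4.38 to 6.75, log2 fold change -2.44, SE 0.14, edgeR adjusted p = 3.05e-07). Even after it, POX08484 ranked 242, 323 and 300 by FPKM among all genes in the mutant, from ranks 45, 30 and 32 in Ku70.

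POX06783 was the member next in mean level in Ku70 and had one of the largest falls. Its FPKM was 1194, 1331 and 1403 in the Ku70 replicates and 49.5, 44.5 and 44.9 in the MuPOX05503 replicates. The mutant values were close together, with a coefficient of variation of 5.98%, the smallest of the 8 genes in that strain. The fall was 30.5-fold (interval 25.4 to 36.6, log2 fold change -4.93, SE 0.12, edgeR adjusted p = 2.82e-09). The gene moved from ranks 115, 106 and 95 in Ku70 to ranks 2996, 3230 and 3201 in the mutant.

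POX06601 had the lowest fold change of the family, although its level in Ku70 was only the fifth of the 8. Its FPKM was 195.8, 222.9 and 225.2 in the Ku70 replicates and 9.94, 4.18 and 5.78 in the MuPOX05503 replicates. Mutant replicate 1 was the highest of its strain, and the coefficient of variation of 44.8% there was the largest of the 8 genes. The fall was 34.9-fold (interval 23.3 to 52.4, log2 fold change -5.13, SE 0.26, edgeR adjusted p = 1.45e-07). Only 0.318% of the tested genes had a lower fold change, against 0.386% for POX06783, and the intervals of these 2 genes overlap. Levels lower by 16-fold or more, which POX06601 and POX06783 both had, were found in 1.02% of the tested genes.

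POX00063, POX05916 and POX04274 fell by similar folds from very different levels. POX00063 was at 1065, 1270.4 and 1088 FPKM in the Ku70 replicates and at 198.9, 131.5 and 142.0 FPKM in the MuPOX05503 replicates, a 7.83-fold fall (interval 6.05 to 10.1, edgeR adjusted p = 2.64e-07). POX05916 had 328.5, 408.5 and 371.0 FPKM in the Ku70 replicates and, in the mutant, 52.7, 35.0 and 45.1 FPKM, a 9.01-fold fall (interval 7.09 to 11.5, edgeR adjusted p = 1.08e-07). In both genes mutant replicate 1 was the highest of its strain and replicate 2 the lowest. POX04274 had 25.8, 29.8 and 26.6 FPKM in the Ku70 replicates and, in the mutant, 3.61, 3.21 and 2.99 FPKM, a 9.03-fold fall (interval 7.504 to 10.9, edgeR adjusted p = 2.18e-08). Its counts in the mutant were 73, 64 and 60, and their exact Poisson 95% intervals, which cover counting error only, run from 45.8 to 91.8 and overlap.

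POX08990 had the smallest fall of the 7 genes. Its FPKM was 15.98, 15.95 and 15.04 in the Ku70 replicates and 3.42, 4.20 and 3.67 in the MuPOX05503 replicates, with no overlap. The fall was 4.48-fold (interval 3.63 to 5.54, log2 fold change -2.17, SE 0.14, edgeR adjusted p = 5.94e-07). Counts were 226, 223 and 208 in Ku70 and 47, 57 and 50 in the mutant, and the variance between libraries was 0.425 and 0.513 times the mean count, below what counting alone gives on average.

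POX01237 had the lowest level of the 8 genes in Ku70 and did not pass. Its FPKM was 8.13, 8.76 and 6.88 in the Ku70 replicates and 4.85, 7.66 and 5.98 in the MuPOX05503 replicates. Mutant replicate 2 lay above Ku70 replicate 3, so the strains overlapped. Its log2 fold change was -0.47 (SE 0.20, edgeR adjusted p = 0.0594), with an unadjusted 95% interval from -0.91 to -0.03, so a fall of up to 1.89-fold lies within it. It passed without MuPOX05503 replicate 2 (edgeR adjusted p = 0.0176) and without Ku70 replicate 3 (edgeR adjusted p = 0.0481). Without any other single library it did not pass (edgeR adjusted p from 0.141 to 0.171). Its counts were 54 to 99, and the variance between libraries was 3.35 times the mean count in the mutant and 1.44 times in Ku70.

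The order of the 8 genes by level differed between the strains. In Ku70 it ran from POX08484 through POX06783, POX00063, POX05916, POX06601, POX04274 and POX08990 to POX01237. Every step of that order was larger than the spread between libraries except that from POX06783 to POX00063, where the ranges overlapped. Within each Ku70 library POX06783 was still the higher, at 1.12, 1.05 and 1.29 times POX00063 in replicates 1, 2 and 3. In MuPOX05503 the order was POX08484, POX00063, POX06783, POX05916, POX06601, POX01237, POX08990 and POX04274. There the ranges overlapped between POX06783 and POX05916, between POX06601 and POX01237, and between POX08990 and POX04274. POX06601 was at 24.1, 25.4 and 32.7 times the level of POX01237 in the Ku70 replicates and at 2.05, 0.546 and 0.967 times in the mutant replicates.

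**Figure D2:**
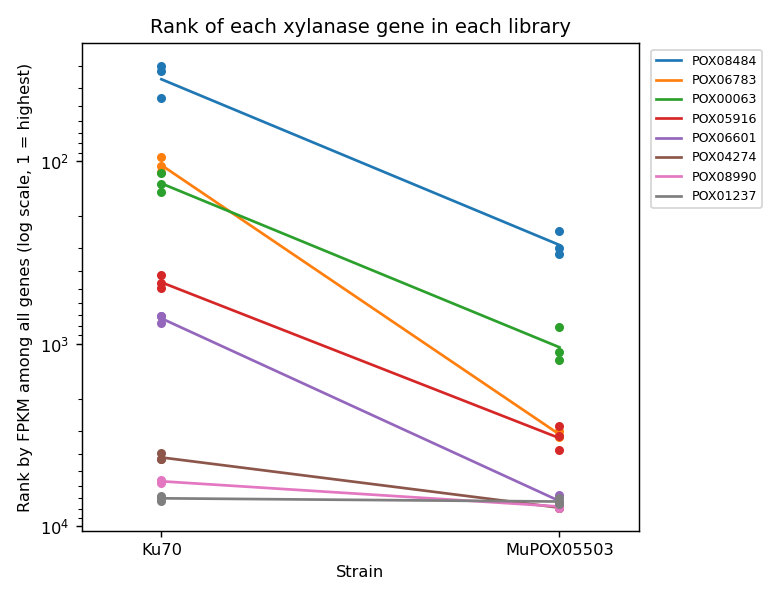
Rank by FPKM among all 9834 genes (log axis, 1 is the highest level) of the 8 xylanase genes; points are libraries and lines join the mean ranks of the strains. POX06783 goes from mean rank 105 to 3142 and falls behind POX00063, POX06601 goes from 727 to 7274, and POX01237 has mean ranks of 7031 and 7323.

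Together the 8 genes took 0.558%, 0.671% and 0.635% of all counts in the Ku70 replicates and 0.104%, 0.0765% and 0.0823% in the MuPOX05503 replicates. The mean share was 7.09 times higher in Ku70 (0.621 ± 0.0574% against 0.0876 ± 0.0144%, SD, n = 3; p = 0.1 by exact two-sided permutation, the lowest value within reach of 3 against 3 libraries). Summed FPKM of the 8 genes was 6155 ± 570.4 in the Ku70 libraries, against 877.2 ± 139 in the mutant libraries (SD, n = 3). Without POX08484 the ratio of the count shares was 10.9. Mutant replicate 1 had the highest level of its strain for 6 of the 8 genes, and its share of all counts (exact binomial 95% interval 0.102% to 0.106%, which covers counting error only) was the highest of the 3. Without that library the ratio was 7.82. Ku70 replicate 1 had the lowest level of its strain for 6 of the 8 genes, and without it the ratio was 7.46.

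The make-up of the family differed between the strains, since its genes fell by unequal folds. POX08484 supplied 48.7%, 50.4% and 50.4% of the summed FPKM in the Ku70 replicates and 68.8%, 70.1% and 69.7% in the MuPOX05503 replicates, a difference of 19.7 percentage points. POX06783 went the other way, from 21.6%, 20.1% and 22.2% to 4.78%, 5.77% and 5.43%, a difference of -15.98 points. POX06601 went from 3.49 ± 0.111% to 0.734 ± 0.211% (SD, n = 3). POX00063 kept an overlapping share, 18.6 ± 1.16% in Ku70 and 17.8 ± 1.21% in the mutant (SD, n = 3; p = 0.4 by exact two-sided permutation).

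The shares of the other members differed by less than a percentage point each. POX05916 supplied 6.00 ± 0.152% in Ku70 and 5.03 ± 0.464% in MuPOX05503, and POX04274 supplied 0.446 ± 0.0229% and 0.376 ± 0.0359% (SD, n = 3). POX01237 supplied 0.129 ± 0.0193% and 0.729 ± 0.263%, and POX08990 supplied 0.256 ± 0.0289% and 0.440 ± 0.107%, both higher in the mutant. The shares of 7 genes, all but POX00063, did not overlap between strains, each with p = 0.1 by exact two-sided permutation. How many of all tested genes would not overlap relative to this total was not counted. Relative to the summed counts of the family 97.2% of them passed edgeR, so the 7 are a description only. By share of the summed counts POX04274 overlapped as well, with 0.6126% in mutant replicate 2 and 0.6122% in Ku70 replicate 3. A share depends on the other members: with POX08484 left out of the total, the differences of POX00063, POX05916 and POX04274 turned positive, 21.5, 4.56 and 0.347 points. The effective number of genes, the inverse of the summed squared shares, was 3.004 ± 0.0575 in the Ku70 libraries and, without overlap, 1.92 ± 0.0206 in the mutant (SD, n = 3; p = 0.1 by exact two-sided permutation).

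**Figure D3:**
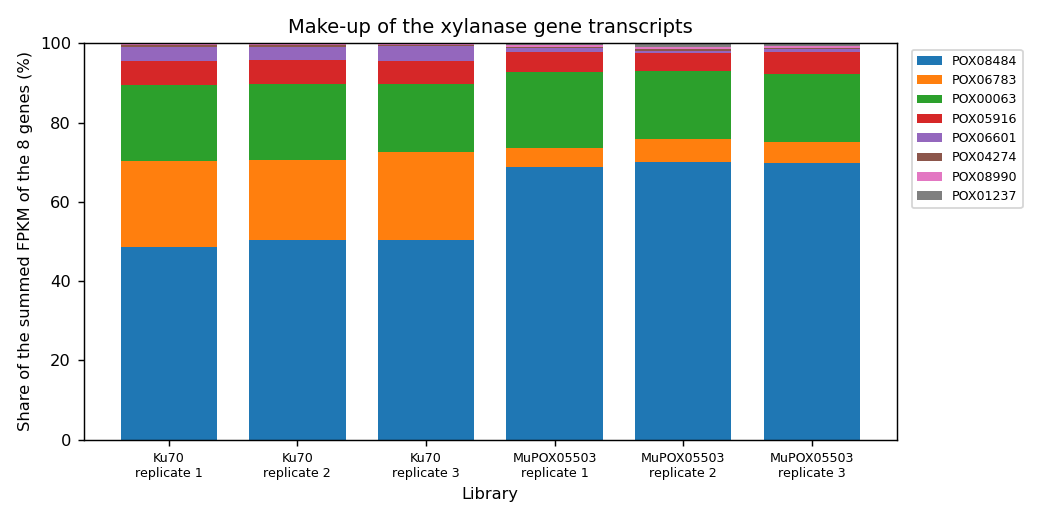
Share of each xylanase gene in the summed FPKM of the 8 genes (%), 1 stacked bar per library, 3 Ku70 and 3 MuPOX05503. The POX08484 part is 48.7% to 50.4% in Ku70 and 68.8% to 70.1% in MuPOX05503, and the POX06783 part is 20.1% to 22.2% and 4.78% to 5.77%.

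Whether a gene fell more or less than the family as a whole was tested in the same edgeR model with the summed counts of the 8 genes as library size, a scaling added after the data were seen. Under this scaling 97.2% of all tested genes passed, 95.6% as higher and 1.53% as lower, and the 8 genes are read only against their own total. POX06601 fell 4.67-fold relative to the family (log2 difference -2.22, SE 0.20, edgeR adjusted p = 1.90e-09), and POX06783 fell 3.95-fold (log2 difference -1.98, SE 0.18, edgeR adjusted p = 2.84e-09). POX01237 rose 5.63-fold relative to it (log2 difference 2.49, SE 0.25, edgeR adjusted p = 1.36e-08), and POX08990 rose 1.72-fold (log2 difference 0.78, SE 0.22, edgeR adjusted p = 0.00198). A rise here is a smaller fall than that of the summed counts, so the call of POX01237 restates that it did not pass as lower over all genes.

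POX08484, which supplied 45.9% of that total in Ku70 and 64.9% in the mutant, passed as higher by a log2 difference of 0.50 (SE 0.18, edgeR adjusted p = 0.0119). That call was lost without MuPOX05503 replicate 3 (edgeR adjusted p = 0.0567), without Ku70 replicate 3 (edgeR adjusted p = 0.0533) and with a block for the replicate letter of the titles (edgeR adjusted p = 0.0791). POX00063, POX05916 and POX04274 did not pass. Their log2 differences from the family had 95% intervals of -0.41 to 0.33, -0.58 to 0.11 and -0.60 to 0.14.

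**Figure D4:**
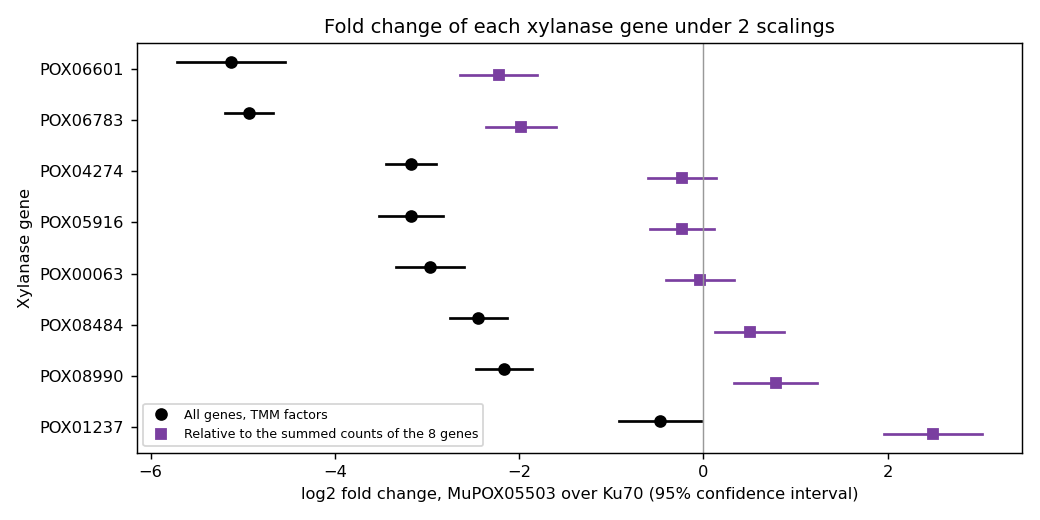
Log2 fold change of each xylanase gene, MuPOX05503 over Ku70, with its 95% confidence interval from edgeR. Circles are scaled over all genes with TMM factors, squares relative to the summed counts of the 8 genes: POX06601 (-2.22) and POX06783 (-1.98) lie below the family, POX01237 (2.49) lies above it.

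Ratios of FPKM within a library restate the FPKM shares above for pairs of genes, so they are not separate support. Like the shares, they do not depend on library scaling. Only some chosen pairs are given. POX08484 was at 2.25, 2.51 and 2.27 times the level of POX06783 in the Ku70 replicates and at 14.4, 12.1 and 12.8 times in the MuPOX05503 replicates, without overlap (p = 0.1 by exact two-sided permutation). POX08484 over POX00063 went from 2.69 ± 0.207 to 3.91 ± 0.292 in the mutant (SD, n = 3), also without overlap. By contrast POX06783 over POX06601 was 6.10, 5.97 and 6.23 in Ku70 and 4.98, 10.6 and 7.76 in the mutant, where the libraries spread widely around the Ku70 values (p = 0.4 by exact two-sided permutation). POX00063 over POX05916 was 3.10 ± 0.155 in Ku70 and 3.56 ± 0.359 in the mutant, with overlap (SD, n = 3; p = 0.2 by exact two-sided permutation).

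The 8 genes also differ in size: the lengths implied by count and FPKM were 803 bases for POX01237, 865 for POX06783, 931 for POX08484, 993 for POX08990, 1093 for POX05916, 1242 for POX00063, 1460 for POX04274 and 1612 for POX06601. POX06601 and POX06783, the pair with the largest falls, thus include the longest gene and 1 of the shortest. None of the 8 genes had a count that was not whole within 0.005 in any library, as 381 genes of the table did; such counts arise when reads are shared between similar copies.

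Genes with identifier numbers close to those of the xylanase genes were also often lower. Whether the numbers follow the chromosomes is not known. Of the 28 tested genes within 2 numbers of a xylanase gene, 19 (67.9%) were lower and 5 higher, beside 32.6% and 31.9% of all tested genes. Within 5 numbers on either side, a set that includes those 28 genes, 26 of 70 tested genes (37.1%) were lower and 19 higher. Of these 26 lower genes, 19 lie within 2 numbers, so genes further out were lower less often than those, and also less often than all tested genes. The median log2 fold change was -0.65 within 2 numbers and -0.16 within 5, beside 0.01 over all tested genes. All 4 neighbours of POX06601 fell, with log2 fold changes from -3.81 to -1.95. The gene numbered 2 before POX06601 went from 387.1, 432.6 and 433.5 FPKM in Ku70 to 38.0, 28.8 and 29.6 FPKM in the mutant.

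Close to POX08484, 3 of 4 neighbours fell and 1 rose. The gene numbered directly after POX08484 fell from 1243 ± 73.0 to 229.6 ± 30.4 FPKM (SD, n = 3), with a log2 fold change of -2.55 beside -2.44 for POX08484 itself. Directly before POX05916 lay a gene that fell from 1937 ± 254 FPKM in Ku70 to 285 ± 4.47 FPKM in the mutant (SD, n = 3), a log2 fold change of -2.87. The 2 tested neighbours of POX06783 fell by log2 changes of only -0.57 and -0.65, and the other 2 genes within that distance were too low to be tested. Both strands of overlapping genes would be counted together if the counting ignored strand, and no source used here gives the strand setting.

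**Figure D5:**
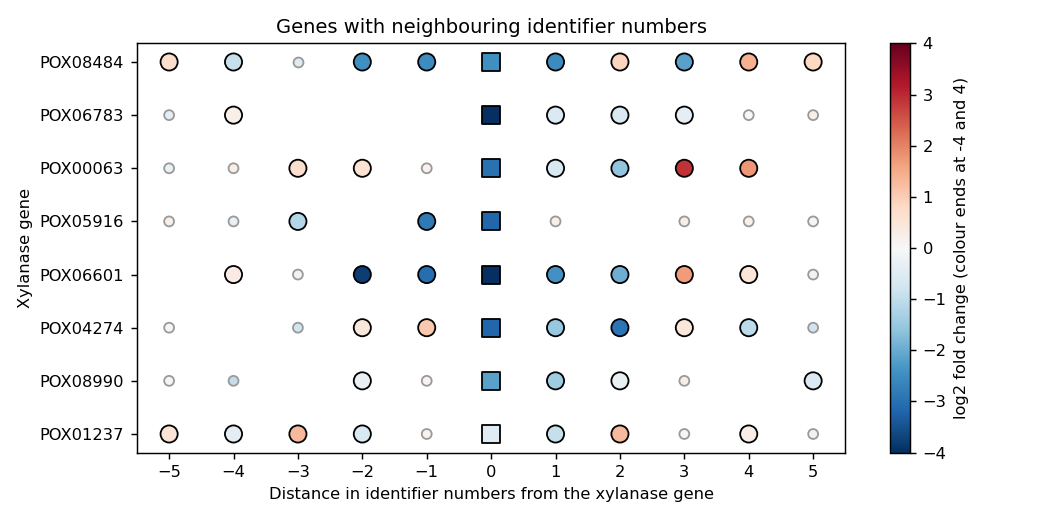
Log2 fold change (colour, blue lower and red higher in MuPOX05503) of the tested genes within 5 identifier numbers of each xylanase gene (square at 0); large circles passed edgeR at an adjusted p under 0.05, small ones did not, and gaps were not tested. Around POX06601 the 4 nearest genes are lower, with log2 fold changes from -3.81 to -1.95.

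For comparison, 8 identifiers listed as cellulase genes were followed in the same fit. They had been named in an earlier account of these data, partly for their values, so their count is a description only. Of these, 7 were lower and 1 higher, with a median log2 fold change of -2.87, beside -3.07 in the xylanase genes, and the difference was not tested. POX04786 and POX01166, the most abundant of them, fell 7.29-fold and 9.74-fold, and the largest fall, that of POX08897, was 15.3-fold. POX06601 and POX06783 fell by more than each of the 8. POX07963 was the gene that rose, from 8.90, 5.76 and 7.85 FPKM in Ku70 to 36.2, 33.2 and 37.6 FPKM in the mutant, and no xylanase gene rose.

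The genes outside the family whose log2(FPKM + 1) followed that of its summed FPKM most closely over the 6 libraries were POX01679 and POX03368. Likeness was measured by Pearson's r, 0.99995 and 0.99978, as a description without a test, since the libraries fall into 2 strains and 440 of 8793 genes reached 0.99. POX01679 was at 41.9, 52.0 and 48.6 FPKM in the Ku70 replicates and at 7.32, 5.14 and 5.70 FPKM in the MuPOX05503 replicates. As in the summed level of the family, Ku70 replicate 1 was the lowest of its strain and mutant replicate 1 the highest of its own. This likeness follows from the choice by r and is not separate support. POX03368 was at 100.4, 125.3 and 122.2 FPKM in the Ku70 replicates and at 12.3, 8.79 and 9.99 FPKM in the mutant replicates. The files give no product for either gene.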

How the data were processed

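RNA from mycelium was sequenced on an Illumina instrument, per the labels' protocols. The authors deposited 1 table per library with an expected count and an FPKM value for each gene, per the file headers. The deposited expected counts are not normalized, and the authors' FPKM values are scaled to gene length and depth. The submitters' processing notes list RSEM 1.2.12, Bowtie2 2.1.0, DESeq2 and BWA 0.7.10-r789 without saying what each did. Build, annotation and strandedness: not given in the sources used here.

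Counts were rounded and tested with edgeR 4.0.16 (R 4.3.3): TMM factors, quasi-likelihood test, strain as the only term, Benjamini-Hochberg over the 8801 genes with FPKM of at least 1 in at least 3 libraries, threshold 0.05. SE is the log2 fold change over the square root of F. The labels name no batch. The fit was run on simulated counts in which few genes changed, balanced in direction. That setting does not test it under a change as wide as that between these strains. Shares were compared by exact permutation over libraries, without the planned adjustment over the 8 genes, because the members and lists were chosen with earlier results of these data known. Named genes are the 8 members, POX05503, the cellulase identifiers highest in Ku70, most lowered or not lowered, and the 2 most alike genes. Alternatives were other size factors, filters and pseudocounts, DESeq2 1.42.0, limma 3.58.1 on log2(FPKM + 1), a replicate block and each library left out. No pair of libraries of a strain differed as little as counting noise gives (chi-square per degree of freedom 10.5 to 47.4).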

Additional observations from a re-analysis of the deposited data

How the results depend on the processing

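Of 128 fold changes of the 8 genes recomputed under the alternatives, 125 kept direction and side of the threshold, 0 reversed and 3 gained a call, all of POX01237: with upper-quartile factors (edgeR adjusted p = 0.0397) and without 2 of the libraries, as given above; its adjusted p ranged from 0.0176 to 0.171. The count of lower xylanase genes was 7 or 8 throughout. All changed genes numbered 5672, 5500 with DESeq2, 5735 with limma on log2(FPKM + 1), 5180 with an FPKM of at least 5 and 5029 to 5603 without each library. Scaling by library totals alone shifted the median log2 fold change of all genes by 0.11 and the share of higher calls from 49.4% to 57.8%. The letters in the titles are not stated to pair libraries, so a replicate block for them was only an alternative. With it, 5529 genes and 7 lower xylanase genes were called. Libraries of the same letter had deviations correlated at 0.00, -0.03 and -0.02. With the block, 4 rather than 5 of the 8 genes differed from the family total, and likewise 4 to 5 without each library. In the main fit to that total 97.2% of all tested genes passed. The ratio of family shares was 6.67 to 7.82 without each library, 7.30 by FPKM, 6.85 with the most abundant gene of each library left out of the totals and 10.9 without POX08484, which fell less than the sum of the others. Shares of 7 genes did not overlap, 6 by counts, and 7 to 8 without each library, with no such count over all genes to set beside them. Lower neighbours made up 67.9% within 2 numbers and 37.1% within 5, a set that includes those within 2. The share within 2 numbers was 57.1% with library totals and with limma, and 62.5% without the FPKM filter. It was 60.7% to 64.3% without each library. With library totals 2442 rather than 2868 of all genes were lower. The cause of the lower neighbours was not tested. With POX08484 left out, the share changes of POX00063, POX05916 and POX04274 turned from negative to 21.5, 4.56 and 0.347 points; POX08484 made up 69.5% of the total in the mutant and 49.8% in Ku70.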
